A study of Mus musculus with 6 samples.

Results

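The Dlx and Msx homeobox genes encode related homeodomain transcription factors, and 8 of them were looked up here by gene symbol, namely Dlx1 to Dlx6, Msx1 and Msx2. A gene was found where the transcript identifier of an array row belonged to it in a mouse RefSeq gene table. That gave 7 genes with 8 probe sets, out of 17331 named genes and 42586 probe sets in all. Dlx5 had 2 probe sets, for separate RefSeq transcripts (NM_010056 and NM_198854), and no row matched Dlx6, which was not analysed here. The cells were MC3T3-E1, a preosteoblast line from mouse calvaria, profiled on 6 single-colour arrays at passages 5 to 12. The undifferentiated group of 3 arrays came from cells in complete medium. The differentiated group of 3 arrays came from cells kept for 15 days in the same medium with 10 mM glycerol-2-phosphate and 50 µg/mL ascorbic acid, which supply phosphate and allow collagen maturation. All 6 cultures had ethanol vehicle for 24 h, and the line has no genetic change named in the labels. The results therefore describe a single cell line, and time in culture, supplements and differentiation cannot be told apart.

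Dlx genes are the vertebrate relatives of fly Distal-less and lie in linked pairs, Dlx1 with Dlx2, Dlx3 with Dlx4 and Dlx5 with Dlx6, whose members are transcribed toward each other. Their proteins and those of Msx1 and Msx2 bind similar sites with a TAAT core. In mouse osteoblasts Dlx5 and Dlx3 act mostly as activators of bone genes, whereas Msx2 acts mostly as a repressor and can oppose Dlx5 at the osteocalcin promoter. BMP signals induce several of these genes in the skull, teeth and limbs.

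All 7 measured genes read above the random-sequence control probes on every array. On each array only 5.75% to 6.77% of all probe sets lay at or below these controls. The controls lay at 6.69 to 6.80 log2 intensity, and the members lay between 0.93 (Dlx4) and 6.48 (Dlx5) log2 units above them. Of 10 osteoblast marker genes, 10 were above the controls on every array, 4 were higher after differentiation and 0 were lower. Among all probe sets 7.96% were called higher and 9.1% lower, and the counts of every marker list stand beside those shares. Markers of other cell types were also read. All 6 muscle and all 6 haematopoietic markers exceeded the controls on every array. So did 5 of 6 adipocyte, 5 of 6 endothelial and 4 of 6 chondrocyte markers. The endothelial markers had 2 higher calls of 6, for Pecam1 (log2 fold change 0.47) and the receptor Tek (1.49), while the endothelial cadherin Cdh5 was not above the controls on any array. The adipocyte hormone Adipoq was lower (-0.42) and the muscle filament gene Des higher (0.42), each the only call among 6 genes of its list. None of 6 chondrocyte and none of 6 haematopoietic markers passed. Mean log2 levels per array, undifferentiated and then differentiated, were 8.41 to 8.55 and 8.88 to 8.91 over the endothelial list. They were 8.40 to 8.66 and 8.46 to 8.56 for adipocyte, 8.79 to 9.06 and 8.96 to 9.20 for muscle, 8.52 to 8.68 and 8.57 to 8.58 for chondrocyte, and 8.56 to 8.69 and 8.63 to 8.69 for haematopoietic markers. The part of other cell types in the results was not tested, and in bulk RNA fewer cells of a type and less RNA per cell cannot be told apart. Undifferentiated replicate 3 lay farthest from its group, with a root mean square deviation of 0.208 log2 units against 0.082 to 0.154 for the other arrays. The image names carry 1 mark shared by all arrays of a group and none shared between groups, so batch and group cannot be told apart.

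The comparison asked how expression of these factors differed after the preosteoblasts had been differentiated. Dlx5 was lower and Dlx3 was higher in differentiated cells, both by less than 2-fold, and the other 5 genes did not pass the test. The test was limma over all 42586 probe sets, and a call means a Benjamini-Hochberg adjusted p under 0.05. Of the 7 genes, counted by the probe set of highest mean level, 1 was called lower beside 9.1% of all probe sets, and 1 was called higher beside 7.96% (2 of 7 in either direction, beside 17.1%). Counts this small do not set the family apart from the table. The difference was negative for 6 genes and positive for 1, with a median log2 fold change of -0.20 over the 7 genes and 0.002 over all probe sets. The 3 arrays of each group did not overlap for 3 lower genes, Dlx1, Dlx2 and Dlx5, beside 18.1% of all probe sets. They did not overlap for 1 higher gene, Dlx3, beside 17.4%, which makes 4 of 7 genes in either direction, beside 35.5%.

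**Figure D1:**
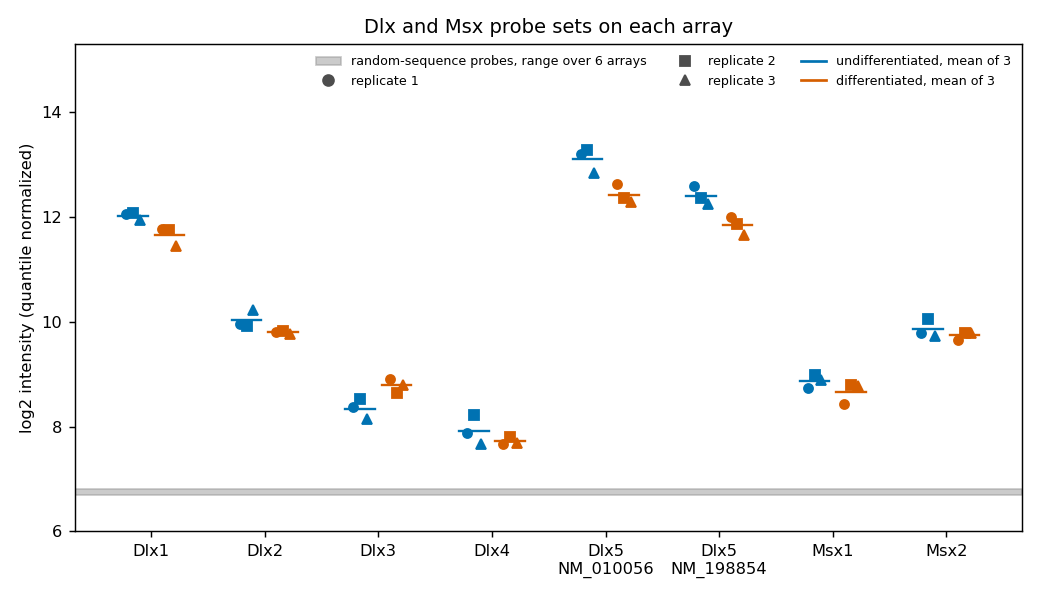
Quantile-normalized log2 intensity (y axis) of each Dlx and Msx probe set on the 6 arrays, blue for undifferentiated and orange for differentiated, with marker shape for replicate and a line at the mean of 3. The grey band is the range of the random-sequence probes, 6.69 to 6.80, and levels of different probe sets are not comparable. The orange points of Dlx1, Dlx2 and both Dlx5 probe sets all lie below the blue ones, those of Dlx3 all lie above, and those of Dlx4, Msx1 and Msx2 overlap.

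Dlx5, an activator of Runx2 and of osteocalcin transcription in mouse bone cells, was the only member called lower. Its first probe set (NM_010056) read 13.20, 13.28 and 12.84 log2 intensity in undifferentiated replicates 1, 2 and 3, and 12.63, 12.36 and 12.28 in differentiated replicates 1, 2 and 3. Every differentiated array lay below every undifferentiated one, and undifferentiated replicate 3 was the lowest of its group. On the deposited linear scale the same arrays read 7916 to 9621 units before and 5113 to 6012 units after differentiation. The mean went from 13.11 ± 0.24 to 12.42 ± 0.18 (SD, n = 3 per group), a log2 fold change of -0.68 ± 0.14 SE, or 1.61-fold lower (limma adjusted p = 0.013). Among all lower calls the median size was 1.48-fold, and 67.9% were smaller than that of Dlx5.

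The second Dlx5 probe set gave the same direction. It read 12.59, 12.36 and 12.25 in undifferentiated and 12.01, 11.87 and 11.65 in differentiated replicates 1, 2 and 3. These groups did not overlap either, and the log2 fold change was -0.56 ± 0.13 SE (1.47-fold lower, limma adjusted p = 0.0199). Both rows report on the same gene and the same RNA, so the second is not independent of the first, and whether they share probes was not tested. Leaving out undifferentiated replicate 1 ended the call of the first probe set (adjusted p = 0.0545), as did leaving out differentiated replicate 2 (0.0666). That of the second was lost in the same settings (0.069 and 0.0768) and also without differentiated replicate 3 (0.0654).

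**Figure D2:**
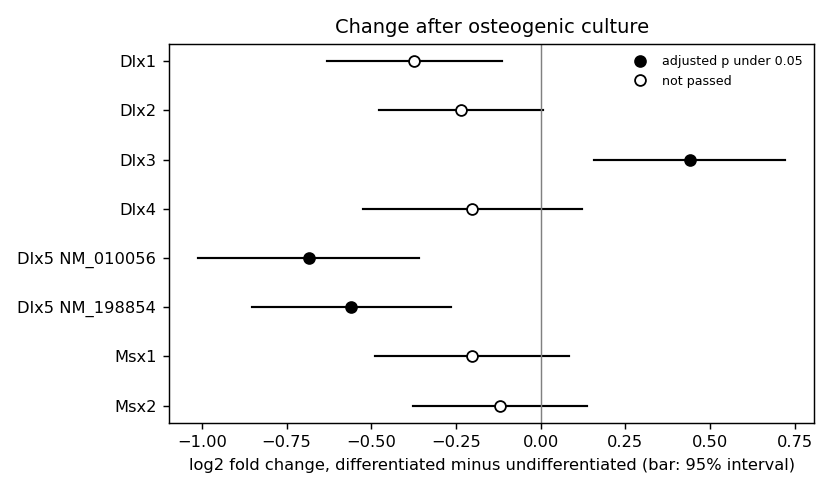
Log2 fold change (x axis, differentiated minus undifferentiated, limma) of each Dlx and Msx probe set with its 95% interval, filled where the adjusted p was under 0.05. The intervals of Dlx1, Dlx3 and both Dlx5 probe sets leave out 0, but Dlx1 does not pass after adjustment (adjusted p = 0.0563).

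Dlx3, a homeodomain activator known from skin, hair, tooth and bone, moved the other way. It read 8.38, 8.52 and 8.14 in undifferentiated and 8.91, 8.64 and 8.80 in differentiated replicates 1, 2 and 3. The groups did not overlap, though the nearest arrays, undifferentiated replicate 2 and differentiated replicate 2, lay close together. The mean rose from 8.34 ± 0.19 to 8.79 ± 0.13 (SD, n = 3 per group), a log2 fold change of 0.44 ± 0.12 SE, or 1.36-fold (limma adjusted p = 0.0419). Its size was modest, since only 24.6% of all higher calls were smaller. The call was near the threshold: it held without undifferentiated replicate 2 (adjusted p = 0.037) and was lost without any other single array, at adjusted p of 0.0555 to 0.142. Dlx3 did not pass on the values as deposited (adjusted p = 0.0665) or after centring each array on its median (0.0724), and passed with cyclic loess (0.0402). With array weights its log2 fold change was 0.27 (limma adjusted p = 0.0343).

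Dlx4, the neighbour of Dlx3, whose role in bone is less well known, read 7.88, 8.23 and 7.67 in undifferentiated and 7.67, 7.81 and 7.69 in differentiated replicates 1, 2 and 3. The groups overlapped, and undifferentiated replicate 2 stood highest. The log2 fold change was -0.20 (95% interval -0.52 to 0.12, limma adjusted p = 0.39), and it was -0.05 without undifferentiated replicate 2 and -0.33 without undifferentiated replicate 3. The per-array difference between Dlx3 and Dlx4 shifted by 0.64 log2 units (95% interval 0.27 to 1.02), with every differentiated array above every undifferentiated one. An exact two-sided permutation test gave p = 0.1, the smallest that 3 against 3 arrays allow, and 0.3 adjusted over the 3 linked or sister pairs compared, so a 0.05 threshold could not be reached. The pair of Dlx5 and Dlx6 could not be compared.

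**Figure D3:**
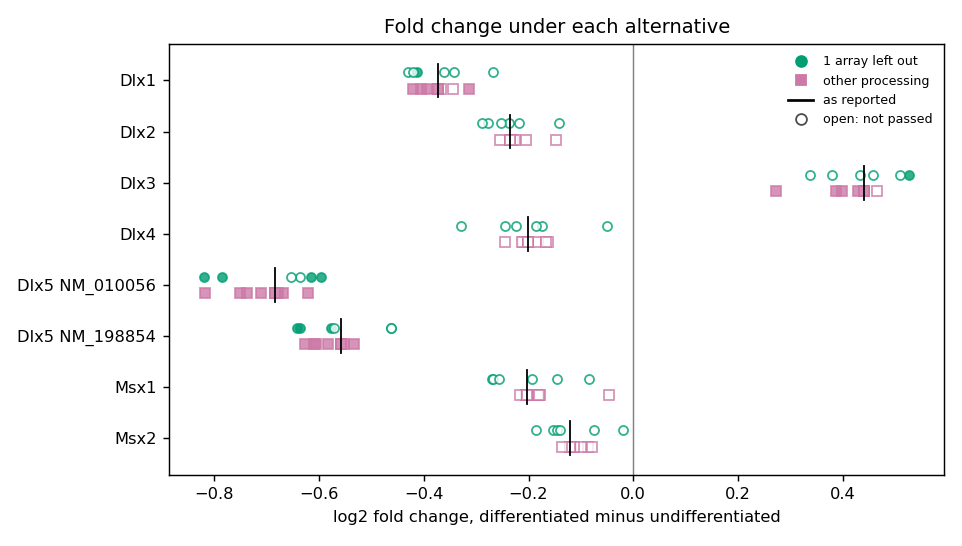
Log2 fold change (x axis) of each Dlx and Msx probe set with 1 array left out (circles) and under other processing (squares), with a black line at the reported value and filled marks where the call was made. No mark crosses 0, Dlx3 stays between 0.27 and 0.53, and the first Dlx5 probe set stays between -0.82 and -0.60.

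Dlx1 and Dlx2, a linked pair best known from forebrain interneurons and the first pharyngeal arch, both had lower values in differentiated cells, but neither passed. Dlx1 read 12.05, 12.08 and 11.94 in undifferentiated and 11.77, 11.75 and 11.44 in differentiated replicates 1, 2 and 3. The groups did not overlap, and differentiated replicate 3 was the lowest array. The log2 fold change was -0.37 ± 0.11 SE (95% interval -0.63 to -0.11, limma adjusted p = 0.0563). Dlx1 passed without undifferentiated replicate 3 (log2 fold change -0.41, adjusted p = 0.0342), and in 8 of 14 other processing alternatives, among them the deposited values (0.0424) and either replicate block.

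Dlx2 read 9.95, 9.93 and 10.22 in undifferentiated and 9.80, 9.83 and 9.76 in differentiated replicates 1, 2 and 3. The groups were apart by a narrow gap, and undifferentiated replicate 3 was the highest array. The log2 fold change was -0.24 (95% interval -0.48 to 0.01, limma adjusted p = 0.175), and -0.14 without undifferentiated replicate 3. The change of Dlx1 minus that of Dlx2 was -0.14 (95% interval -0.59 to 0.32, exact permutation p = 0.5), which leaves room for unequal changes in either direction. Dlx1as, an antisense RNA gene that overlaps the pair, had no matched row, and whether the Dlx1 probes separate the strands was not tested.

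The promoters of this pair are shown because its genes are linked and were both lower on every differentiated array. RefSeq windows of 300 bases on GRCm38.p6 (250 bases before to 50 after the start) were at hand for 4 members. These were Dlx1, Dlx2, Msx1 and Msx2, so the called genes Dlx3 and Dlx5 had no window to show. Dlx1 lies at chr2:71529195-71529494 on the plus strand and Dlx2 at chr2:71546705-71547004 on the minus strand, each written 5′ to 3′ along the gene with capitals for motif matches.
Dlx1: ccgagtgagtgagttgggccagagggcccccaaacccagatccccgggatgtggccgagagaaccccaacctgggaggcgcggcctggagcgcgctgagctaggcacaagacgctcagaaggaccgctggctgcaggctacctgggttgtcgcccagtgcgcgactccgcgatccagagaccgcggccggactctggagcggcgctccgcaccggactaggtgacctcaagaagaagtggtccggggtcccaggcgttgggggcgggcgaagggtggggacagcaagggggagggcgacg
Dlx2: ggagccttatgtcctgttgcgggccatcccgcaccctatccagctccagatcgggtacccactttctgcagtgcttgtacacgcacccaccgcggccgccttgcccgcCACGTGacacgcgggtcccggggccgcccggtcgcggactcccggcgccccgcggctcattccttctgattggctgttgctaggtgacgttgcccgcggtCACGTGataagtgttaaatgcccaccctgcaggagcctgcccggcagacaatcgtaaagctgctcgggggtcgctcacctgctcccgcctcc
Both windows were rich in CpG, with 27 sites in Dlx1 and 29 in Dlx2 against a median of 7 over 32851 windows. Of all windows, 84.5% held fewer sites than Dlx1 and 87.1% fewer than Dlx2. Neither held the RUNX core TGTGGT, found on either strand in 16.8% of all windows, the homeodomain core TAATTA or TAATTG (12.4%), or the TATA box TATAAA (13.6%). Dlx2 held the E-box CACGTG at 142 and at 42 bases before the start. That motif, chosen after the windows had been read, was found in 7.15% of all windows. A match is only a match of letters, and binding was not measured here.

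Msx1 and Msx2, homeodomain repressors expressed in the developing skull and teeth of mouse, showed no called difference. Msx1 read 8.74, 8.98 and 8.89 in undifferentiated and 8.43, 8.79 and 8.78 in differentiated replicates 1, 2 and 3. The groups overlapped, with differentiated replicate 1 the lowest. The log2 fold change was -0.20 (95% interval -0.49 to 0.08, limma adjusted p = 0.327), and -0.08 without differentiated replicate 1. Msx2, the antagonist of Dlx5 at the osteocalcin promoter, read 9.79, 10.06 and 9.73 in undifferentiated and 9.65, 9.79 and 9.78 in differentiated replicates 1, 2 and 3. Only undifferentiated replicate 2 stood apart, above the other 5 arrays, and the log2 fold change was -0.12 (95% interval -0.38 to 0.14, limma adjusted p = 0.535). Without undifferentiated replicate 2 the Msx2 value was -0.02, without undifferentiated replicate 3 it was -0.19, and without differentiated replicate 1 it was -0.07. The change of Msx1 minus that of Msx2 was -0.08 (95% interval -0.38 to 0.21, exact permutation p = 0.6). The intervals of both genes, from 3 arrays per group, leave out a rise or a fall of 2-fold but not smaller changes. Msx3, a sister gene known from the dorsal neural tube in mouse, was not above the controls on any array.

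The Msx2 window (chr13:53472731-53473030, minus strand) is shown because it was the only 1 of the 4 with TAATTA or TAATTG, found in 12.4% of all windows. Dlx and Msx proteins bind sites of this kind, but the shorter TAAT core alone was not searched. The match, in capitals, lay 187 bases before the start.
Msx2: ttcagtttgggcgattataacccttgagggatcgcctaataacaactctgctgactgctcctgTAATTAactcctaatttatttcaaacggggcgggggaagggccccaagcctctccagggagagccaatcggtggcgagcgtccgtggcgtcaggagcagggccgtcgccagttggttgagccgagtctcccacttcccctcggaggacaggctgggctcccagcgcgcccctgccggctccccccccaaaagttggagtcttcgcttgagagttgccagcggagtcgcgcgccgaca
The window held 22 CpG sites, no RUNX core and no TATA box. The Msx1 window held 29 CpG sites and none of the motifs searched.

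BMP ligands, receptors and Smads act upstream of Dlx and Msx genes. The list read here also held BMP antagonists and direct BMP targets. Of 23 listed genes 22 were measured, 1 was called higher, 1 lower and 20 not, with a median log2 fold change of 0.06. Over all probe sets 7.96% were called higher and 9.1% lower, or 17.1% in either direction, and the counts of this list and the next 3 stand beside those shares. The ligand Bmp4 rose from 11.85 ± 0.05 to 12.95 ± 0.11 log2 intensity (SD, n = 3 per group), 2.14-fold (limma adjusted p = 0.000165). Bmper, a secreted BMP-binding protein, fell from 13.04 ± 0.22 to 8.94 ± 0.12, 17.2-fold lower (limma adjusted p = 6.5e-07). The direct BMP targets Id1, Id2 and Id3, named after their values were seen, had log2 fold changes of 0.26, 0.09 and 0.17 and did not pass. Without undifferentiated replicate 2 there were 2 higher calls, and without undifferentiated replicate 3 there were 2 lower calls.

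Of 16 genes whose proteins are known to bind or regulate Dlx or Msx proteins, 3 were called lower, 1 higher and 12 not (median log2 fold change -0.05). Pax3, a paired homeodomain factor that binds Msx1 in mouse muscle progenitors, fell from 11.28 ± 0.12 to 10.29 ± 0.27 (SD, n = 3 per group), 1.98-fold (limma adjusted p = 0.00226). Twist1, a bHLH factor of cranial mesenchyme that works with Msx2 in skull growth, fell 1.96-fold (adjusted p = 0.00652). Spen, the nuclear co-repressor also named Msx2-interacting protein, fell 1.48-fold, and Cebpb, a leucine zipper factor, rose 1.53-fold. The calls of Spen and Cebpb were lost without differentiated replicate 2 (limma adjusted p = 0.0624 and 0.0707). Runx2, both a partner and a target of these factors, had a log2 fold change of 0.02 (95% interval -0.19 to 0.23).

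Of 14 genes known as Dlx or Msx targets, most of them osteoblast genes, 5 were called higher, beside 7.96% of all probe sets, and 1 was called lower, beside 9.1%. The other 8 did not pass, and the median log2 fold change was 0.12. The alkaline phosphatase gene Alpl rose 8.1-fold and the osteocyte matrix gene Dmp1 7.77-fold. The parathyroid hormone receptor gene Pth1r rose 3.23-fold, the osteocalcin gene Bglap 1.75-fold and the transcription factor Sp7 1.43-fold (limma adjusted p = 5.04e-07 to 0.00887 over these 5 genes). All of them but Dmp1 are also the 4 higher calls of the osteoblast marker list, so the lists are not independent. The cyclin gene Ccnd1, which Msx1 sustains in mouse progenitors, was called lower (1.39-fold, adjusted p = 0.0246). Ccnd1 no longer passed when undifferentiated replicate 2 or any single differentiated array was left out (adjusted p = 0.0654 to 0.0951). Bglap has close paralogs, and whether its probes separate them was not tested.

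**Figure D4:**
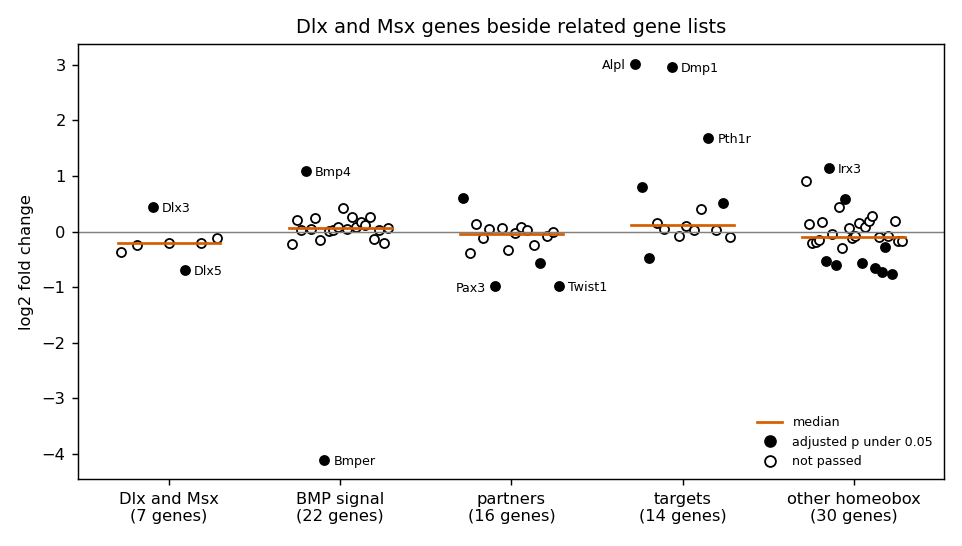
Log2 fold change (y axis, differentiated minus undifferentiated) of the 7 Dlx and Msx genes and of 4 related gene lists, 1 point per gene, filled where the adjusted p was under 0.05, with a line at the median. The Dlx and Msx points lie between -0.68 and 0.44, while Bmper (-4.10), Alpl (3.02) and Dmp1 (2.96) lie far outside that range.

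Of 30 other homeobox genes of limb or craniofacial mesenchyme, 7 were called lower, 2 higher and 21 not (median log2 fold change -0.09). Irx3, an Iroquois-class factor, rose 2.21-fold, from 10.04 ± 0.08 to 11.18 ± 0.06 (SD, n = 3 per group; limma adjusted p = 0.000102), and Meis2, a TALE-class cofactor, rose 1.5-fold. Six4 fell 1.7-fold, Shox2, a limb and palate factor, 1.66-fold, Prrx2, a mesenchymal paired-class factor, 1.57-fold, and Lhx6, a LIM-class factor of the jaw, 1.51-fold. The call of Six4 was lost without differentiated replicate 1 or 2 (limma adjusted p = 0.058 and 0.0606), and either omission left 4 lower calls.

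Genes beside the members on the chromosomes differed among themselves. The nearest gene before Dlx1 and Dlx2 in the RefSeq table was Metap1d, a mitochondrial aminopeptidase gene, with a log2 fold change of 0.33 that did not pass (limma adjusted p = 0.0658). Itga3, an integrin subunit gene before Dlx3 and Dlx4, had one of 0.34 (adjusted p = 0.0976). The other nearest genes had no matched row, so the nearest protein-coding genes were read in their place if measured, a choice outside the rule for named genes. Among these, Itga6, a laminin-binding integrin gene beyond Dlx2, rose from 7.84 to 11.77 log2 intensity, 15.2-fold (adjusted p = 0.000146). Sem1, a proteasome subunit gene on the Dlx5 and Dlx6 side, fell from 12.43 to 11.61, 1.76-fold (adjusted p = 0.00179). Stx18, a syntaxin gene beside Msx1, rose 1.32-fold (adjusted p = 0.0163), a call lost without any single differentiated array (adjusted p = 0.0559 to 0.0707) and with median centring (0.0643). Tac4 beside Dlx4 and Drd1 beside Msx2 did not pass. The protein-coding genes Sdhaf3 beside Dlx5 and Dlx6, Cytl1 beside Msx1 and Gm38564 beside Msx2 had no matched row either. Those places were therefore read on a single side.

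The genes whose centred profile over the 6 arrays was nearest to a called member were sought among 15928 named genes above the controls on every array. Likeness was the root mean square difference in log2 units, in which 0 is an identical profile. For Dlx5 these were Ly6c1 (0.069), Parvb (0.071) and H2ac24 (0.08), with log2 fold changes of -0.63, -0.61 and -0.76. For Dlx3 they were Tmod1 (0.052), Igfbp1 (0.056) and Sez6l2 (0.056), with log2 fold changes of 0.34, 0.50 and 0.44. They were chosen for their profile on these arrays, so their changes are a description only.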

How the data were processed

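RNA of 6 MC3T3-E1 cultures was hybridised to NimbleGen arrays. The authors deposited linear intensity values made with RMA, per the submitters' processing notes; the version of RMA and the build behind the array design are not given in the sources used here. Per the file headers each probe set has an expression value and a number of probes, 9 for 42566 of 42586. The control line of random-sequence probes was left out of tests. At matched ranks the median difference between a pair of arrays reached 0.135 log2 units in the deposited values. This was above a limit of 0.02, so log2 intensities were quantile normalized. Probe sets were named by accession (17849) or by name (130) from a RefSeq table, and 24607 kept no name. The 2 groups of 3 arrays entered a two-sided limma fit (version 3.58.1, R 4.3.3) with no covariate and no filter, and the script was tested on simulated data with 200 changed probe sets. Pairs of genes were compared by exact permutation. Members and lists were chosen with earlier results of these data known. Named genes were all members, up to 6 called genes of largest change per list, the 3 nearest profiles of each called member and the members' chromosomal neighbours. The series' value table held the same values with differentiated replicates 1 and 2 exchanged. Replicate numbers here follow the per-array files. The sample titles do not settle which source is right, so the numbers of differentiated replicates 1 and 2 are uncertain. The series calls its triplicates biological without saying how the cultures were separated, and p-values measure the spread between these arrays. Array intensities have no counting depth, and the number of arrays limits the precision. Alternatives covered normalization, filters, probe set choice, variance model, array weights, offset, blocks, threshold and each array left out.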

Additional observations from a re-analysis of the deposited data

How the results depend on the processing

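No alternative changed the direction of any member, but 1 array left out moved the log2 fold changes of Dlx2, Dlx4, Msx1 and Msx2 by over 1.5 times, and array weights moved those of Dlx2 (to -0.15), Dlx3 (0.27), Msx1 (-0.05) and Msx2 (-0.08). All 7263 calls over the table became 16080 with array weights, 3238 at adjusted p under 0.01 and 13100 with each array's spread as a covariate (added after the data were seen), and 3204 (without differentiated replicate 2) to 9551 (without undifferentiated replicate 3) with 1 array left out. The 1 lower member call became 2, with Dlx1 beside Dlx5, with deposited values, median centring, the 50th percentile filter, eBayes trend and robust, array weights, the covariate and both forms of the replicate block, and 0 at adjusted p under 0.01; with 1 array left out it ran from 0 to 2. The 1 higher member call (Dlx3) became 0 with deposited values, median centring, adjusted p under 0.01 and the 50th percentile filter, which removed Dlx3, and ran from 0 to 1 with 1 array left out. The cause of the other changes was not tested. BMP calls went from 2 to 7 with array weights and 5 with the covariate (2 to 3 with 1 array left out), partner calls from 4 to 8 with array weights and 2 at adjusted p under 0.01 (2 to 5), and other homeobox calls from 9 to 18 and 5 in those settings (6 to 10). Target calls stayed within 1.5 times of 6. The replicate block gave 9163 calls over the table (10691 with exchanged numbers). It used the replicate numbers of the per-array files, which need not pair cultures. Same-numbered arrays correlated in their deviations at 0.334, -0.144 and 0.461, and at -0.01, 0.428 and 0.461 with differentiated numbers 1 and 2 exchanged. The value table was not run as a separate setting, since it holds the same values. Dlx4 was the member nearest to the control level.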
